A study of Mus musculus with 6 samples.

Results

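The mature microRNAs (miRNAs) of the miR-379 to miR-410 cluster were followed in the brain cortex of untreated adult male mice, with 1 small RNA library from each of 3 Fmr1 knockout (KO) and 3 wild type (WT) samples. Members were chosen by name and by depth: of 1182 rows in the deposited table, 69 carry a name from the cluster, and the 56 of these with at least 60 reads summed over the 6 libraries were kept. The summed reads that chose them are a description and support no result. Just inside the limit lay miR-1193-3p with 60 reads and miR-668-5p with 69, and just outside it miR-666-3p with 35 and miR-679-3p with 28. The 56 members come from 33 hairpins, 26 from the 5p arm and 30 from the 3p arm, and all 56 also had enough reads for the test between genotypes.

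Per the labels, the cortices came from age-matched males and biological replicates were processed in parallel. The strain, the age in weeks, the Fmr1 allele and the assignment of libraries to litters were not given in the sources used here. Replicates are numbered in accession order, so a number only names a library. The p-values set the difference between genotypes against the spread between these libraries. The product of Fmr1, FMRP, binds messenger RNAs and controls their translation at synapses. A table of miRNAs holds no Fmr1 messenger RNA, so the knockout itself could not be checked in it. Libraries held from 11182888 to 15733876 reads. The 7 neuronal markers summed to 311019 to 456353 CPM, read counts scaled to a common library size, in KO and 337566 to 369086 CPM in WT, among them miR-9-5p at 183266 to 316153 CPM, miR-128-3p at 90410 to 111894 CPM and miR-124-3p at 1297 to 2118 CPM. CPM throughout use library sizes scaled by the trimmed mean of M-values (TMM).

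The KO libraries differed from each other far more than the WT libraries did. The chi-square statistic per degree of freedom between the read counts of library pairs was 54.65 to 68.55 within WT and 691.3 to 1165 within KO. Against the WT libraries it was 340.6 to 390.2 for KO replicate 1, below every pair within KO. For KO replicates 2 and 3 it was 617.9 to 787.4 and 770.2 to 908.5. The statistic grows with read depth and weighs abundant miRNAs most. Markers of other sources also varied within KO: the summed level of 5 miR-200 family members, found in olfactory neurons and epithelium, was 15.7, 904.3 and 970.1 CPM in the KO libraries against 83.9 to 290.0 CPM in WT. For 7 markers of choroid plexus and multiciliated cells the sum was 2116 CPM in KO replicate 3 and 971 to 1046 CPM in the other 5 libraries. All listed markers were in the table and none was at 0. Oligodendrocyte markers (4 of 4) summed to 632.2 to 873.9 CPM in KO libraries and 856.9 to 973.7 CPM in WT, microglia and leukocyte markers (5 of 5) to 87.5 to 132.7 and 88.9 to 102.6 CPM, endothelial and mural markers (4 of 4) to 38483 to 44554 and 35223 to 42566 CPM, erythroid markers (4 of 4) to 80.3 to 120.6 and 75.4 to 83.4 CPM, and hindbrain and spinal cord markers (4 of 4) to 54.4 to 100.5 and 67.1 to 74.8 CPM. The part of these differences in the results below was not tested, and a lower share of a cell type cannot be told apart from less of a miRNA per cell in whole cortex.

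The cluster is the distal miRNA array of the imprinted Dlk1-Dio3 domain. Its noncoding RNAs are made from the maternal chromosome only, and its hairpins are cut from long transcripts that share a promoter far upstream. In neurons, transcription of the array responds to activity through the factor Mef2. Several of its miRNAs act in dendrites, where miR-134-5p limits the size of dendritic spines by repressing Limk1. On GRCm38, the assembly of the build mm10 named by the submitters, the 33 hairpins lie on the plus strand of chromosome 12 between 109709060 and 109743795, a span of 34.7 kb. In the GENCODE M21 annotation, 21 of them, from miR-379 to miR-539, lie outside any annotated host gene. The other 12, from miR-382 to miR-410, lie in the long noncoding RNA gene Mirg (109729764 to 109749460), 8 overlapping an exon and 4 within introns.

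Mature sequences in RefSeq on GRCm38.p6 were found for 53 of the 56 members. They are shown for the members that lead the cluster in level or stand out in the comparison, 5′ to 3′, with the seed (bases 2 to 8, which pair with target messenger RNAs) in capitals. The most abundant pair are neighbours at the head of the cluster.
miR-379-5p: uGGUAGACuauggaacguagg
miR-411-5p: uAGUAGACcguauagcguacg
The next pair had the lowest p among members with lower values in KO.
miR-381-3p: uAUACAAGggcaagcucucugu
miR-300-3p: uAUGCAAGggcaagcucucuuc
A further pair of neighbours parted in a single KO library.
miR-543-3p: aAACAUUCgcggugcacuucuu
miR-495-3p: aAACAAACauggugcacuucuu
The following had the lowest p among members with higher values in KO, with miR-376b-3p shown beside its own 5p arm.
miR-376b-5p: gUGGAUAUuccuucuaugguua
miR-376b-3p: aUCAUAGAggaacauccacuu
miR-376a-3p: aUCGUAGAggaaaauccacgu
miR-377-3p: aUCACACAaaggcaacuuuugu
The 3p arms of the leading hairpins share a seed.
miR-379-3p: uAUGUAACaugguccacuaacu
miR-411-3p: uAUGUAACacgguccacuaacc

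Counted from base 1 at the 5′ end, miR-381-3p and miR-300-3p are identical at 19 of 22 bases and differ at A4G, G21U and U22C (the base of miR-381-3p first), so a single base separates their seeds. The pair miR-543-3p and miR-495-3p is identical at 18 of 22 bases and shares its last 12 bases; the differences are U6A, U7A, G9A and C10U, with miR-543-3p first. For miR-411-3p and miR-379-3p the differences are C10U and C22U, both outside the seed. The 53 sequences hold 51 distinct seeds. Seeds were shared by miR-379-3p with miR-411-3p and by miR-379-5p with the scarce miR-1193-5p, and the seeds of the other members with a sequence were each found once among the 53. Some seeds also occur in miRNAs outside the cluster, for example that of miR-410-3p in miR-344d-3p, that of miR-1193-3p in miR-370-5p and that of miR-377-5p in miR-672-5p. The first base was U in 23 of the 53 sequences, A in 20, G in 7 and C in 3. GC content ran from 23.8% to 72.7%, with a median of 45.5%.

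Levels within the cluster spanned several orders of magnitude, although the hairpins are thought to come from common transcripts. Mean levels over the 6 libraries ran from 0.725 CPM for miR-1193-3p to 6018 CPM for miR-379-5p, with a median of 26.6 CPM. Of the 56 members, 5 reached 1000 CPM, 16 reached 100 CPM, 35 reached 10 CPM and 3 were below 1 CPM. Reads were concentrated in few members: miR-379-5p, miR-411-5p, miR-381-3p and miR-541-5p made up 76.9% ± 0.767 of the cluster's reads in KO libraries and 76.1% ± 0.0756 in WT libraries (SD, 3 each), and the 8 most abundant 89.3% ± 1.40 and 89.9% ± 0.219. The leading pair, miR-379-5p and miR-411-5p, made up 51.8%, 50.8% and 48.9% of the cluster's reads in the KO libraries against 45.2%, 45.5% and 43.6% in the WT libraries, without overlap. This share was not tested and has no background, and it also moves with the reads of the other members. The levels of miR-379-5p and of miR-411-5p themselves overlapped between genotypes. Abundant members sat at the start of the array (miR-379-5p, miR-411-5p), in its middle (miR-300-3p, miR-381-3p) and near its end (miR-541-5p, miR-409-3p, miR-369-5p), as the plot of levels along the cluster shows. Scarce members lay between them, such as miR-494-3p and miR-1193-5p with mean levels of 1.59 and 0.868 CPM.

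**Figure D1:**
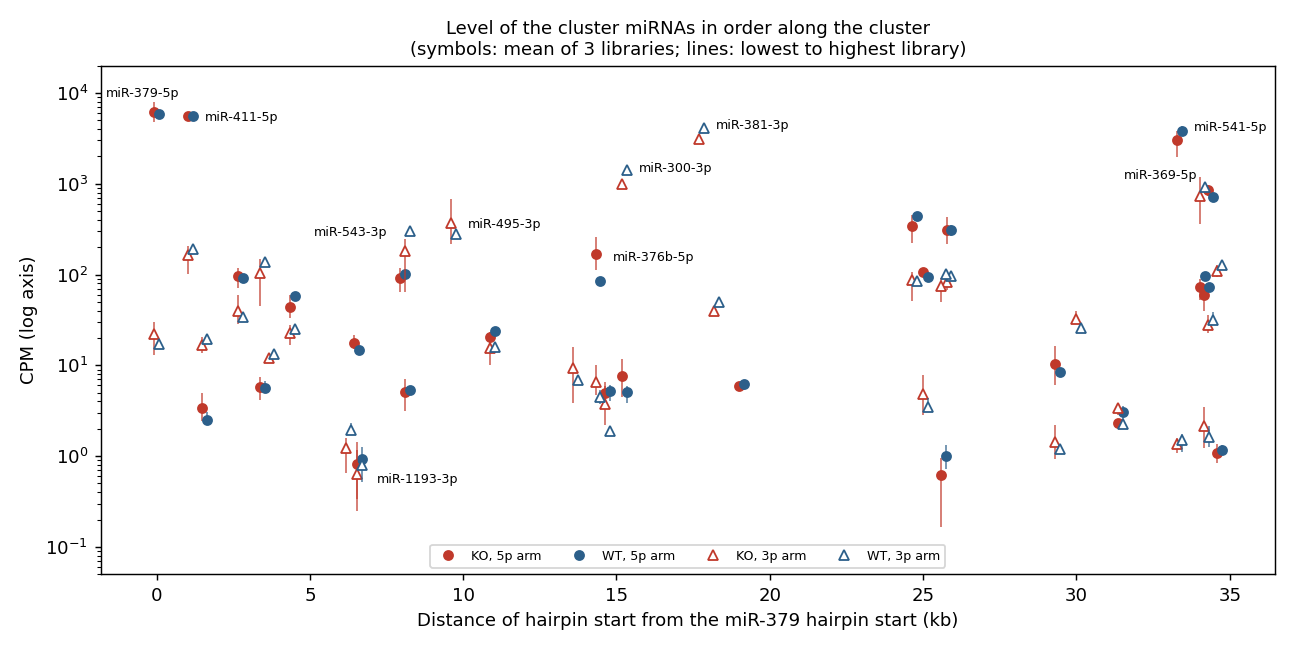
Level of the 56 cluster miRNAs in CPM (log axis) against the distance of their hairpin from the miR-379 hairpin in kb. Red is KO and blue WT, filled circles are 5p and open triangles 3p arms, symbols are means of 3 libraries and lines run from the lowest to the highest library. The highest members, miR-379-5p and miR-411-5p, lie side by side at the start, and lines are longer in KO than in WT for most members.

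The whole cluster took 2.88%, 1.96% and 2.21% of all reads in the KO libraries and 2.59%, 2.63% and 2.495% in the WT libraries. The mean was 2.35% ± 0.473 for KO and 2.57% ± 0.0684 for WT (SD, 3 libraries each), and the WT values lie inside the KO range. Summed over members, levels came to 26342, 23720 and 20380 CPM in the KO libraries against 25175, 25588 and 25822 CPM in the WT libraries. Replicate 2 of KO, the lowest by share of reads, also had the highest miR-9-5p. Among reads other than those of the 5 most abundant miRNAs of the table, the cluster's share was 6.69%, 5.83% and 6.28% in KO and 6.35%, 6.66% and 6.41% in WT.

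The leading members did not separate the genotypes. Levels of miR-379-5p were 8009, 5881 and 4809 CPM in the KO libraries against 5717, 5856 and 5838 CPM in the WT libraries. The KO libraries lay on both sides of a WT group that spanned a ratio of 1.02 from highest to lowest, and the log2 fold change of KO over WT was 0.10 (SE 0.19, 95% interval -0.34 to 0.54, edgeR adjusted p = 0.882). Its neighbour miR-411-5p had 5626, 6162 and 5158 CPM in the KO libraries against 5664, 5790 and 5425 CPM in the WT libraries, for a fitted log2 change of 0.01 (SE 0.13, edgeR adjusted p = 0.994). Without KO replicate 1 the log2 fold change of miR-379-5p was -0.1065, and without KO replicate 2 that of miR-411-5p was -0.1051, so neither has a stable direction.

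Further along, miR-541-5p had 3841, 3243 and 1994 CPM in the KO libraries against 3769, 3515 and 4289 CPM in the WT libraries, with KO replicate 3 alone far below the rest. Levels of miR-409-3p were 1187.55, 679.2 and 361.8 CPM in the KO libraries against 925.5, 875.6 and 972.2 CPM in the WT libraries. Replicate 1 of KO stood above and the other KO libraries below every WT library. For miR-382-5p the values were 453.2, 350.2 and 220.4 CPM in the KO libraries against 442.7, 430.1 and 456.1 CPM in the WT libraries. The log2 fold changes of these 3 members were -0.35 (SE 0.23), -0.32 (SE 0.37) and -0.38 (SE 0.25), and without KO replicate 3 they were -0.1084, 0.02423 and -0.1274. Without KO replicate 1 they were -0.5474, -0.8176 and -0.6231. In the other direction miR-369-5p, from an exon of Mirg, had 980.0, 842.4 and 727.0 CPM in the KO libraries against 724.1, 687.3 and 728.0 CPM in the WT libraries, for a fitted log2 change of 0.25 (SE 0.16, edgeR adjusted p = 0.769). Its highest KO libraries were above the WT range and its lowest lay within it, and without KO replicate 1 the value was 0.1505.

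The seed-sharing 3p arms of the leading hairpins are minor products. Levels of miR-411-3p were 207.2, 186.2 and 101.4 CPM in the KO libraries against 188.0, 204.02 and 184.4 CPM in the WT libraries. Those of miR-379-3p were 23.9, 29.7 and 12.9 CPM in the KO libraries against 17.0, 18.8 and 15.9 CPM in the WT libraries. In both, KO replicate 3 was the lowest of the 6 libraries and the groups overlapped. Their log2 fold changes were -0.22 (SE 0.27, edgeR adjusted p = 0.853) and 0.36 (SE 0.30, edgeR adjusted p = 0.791). Without KO replicate 3 they were 0.04919 and 0.6532, so the direction of miR-411-3p rests on that library. The edgeR adjusted p of miR-379-3p was then 0.05418, and without KO replicate 2 its log2 fold change was 0.03409 (edgeR adjusted p = 0.9778).

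Other well-expressed members overlapped between genotypes. Levels of miR-485-5p, from an exon of Mirg, were 432.2, 216.5 and 291.3 CPM in the KO libraries against 268.9, 309.2 and 349.1 CPM in the WT libraries, with the highest and the lowest library both KO. At the end of the array, miR-410-3p had 94.6, 126.3 and 109.5 CPM in the KO libraries against 131.2, 134.7 and 116.8 CPM in the WT libraries. Only KO replicate 2 lay within its WT range. Their log2 fold changes were 0.02 (SE 0.26) and -0.21 (SE 0.19), and those of miR-666-5p, miR-380-5p, miR-485-3p and miR-382-3p lay between -0.21 and 0.05.

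No member passed the test between genotypes. At an adjusted p below 0.05 (edgeR quasi-likelihood test, Benjamini-Hochberg adjustment over all 541 tested miRNAs) 0 of 56 members were called, and the background over all tested miRNAs was 0%. DESeq2 and limma-voom also called 0 members. The median 95% interval of a member reached 0.62 log2 units to either side of its estimate. At an unadjusted p under 0.05 there were 5 members, which is 8.93% of the members against 6.47% of all tested miRNAs. Of these, 3 had higher values in KO (background 3.33%) and 2 lower values (background 3.14%). DESeq2 and limma-voom gave 3 members each at that level, beside 40 of 1182 and 34 of 541 miRNAs. The members' count rests on single libraries: it was 10 without KO replicate 1, 9 without KO replicate 3 and 5 without KO replicate 2. The background was then 71 of 561, 97 of 560 and 50 of 559 miRNAs. Without WT replicates 1, 2 and 3 there were 2, 1 and 2 members, beside 16 of 557, 14 of 564 and 18 of 554 miRNAs. The count over all miRNAs thus also changed with the library left out.

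The members with lower values at that level were the near-identical neighbours miR-300-3p and miR-381-3p, whose hairpins start at 109724313 and 109726822. Levels of miR-300-3p were 870.5, 1100 and 1049 CPM in the KO libraries against 1392, 1479 and 1425 CPM in the WT libraries. Those of miR-381-3p were 2760, 3136 and 3556 CPM in the KO libraries against 4041, 4309 and 4103 CPM in the WT libraries. In both, every KO library was below every WT library. The log2 fold change was -0.51 for miR-300-3p (SE 0.15, 95% interval -0.86 to -0.16, unadjusted p = 0.00928, edgeR adjusted p = 0.694) and -0.40 for miR-381-3p (SE 0.15, 95% interval -0.73 to -0.06, unadjusted p = 0.0248, edgeR adjusted p = 0.705). These were the members called when KO replicate 3 was left out, at adjusted p-values of 0.04235 and 0.04024 (edgeR, 3 WT against 2 KO libraries, 18 of 560 miRNAs called). Over all 11 alternatives the adjusted p of each ran up to 0.9988 and the log2 fold change stayed between -0.6136 and -0.4018 for miR-300-3p and between -0.476 and -0.2979 for miR-381-3p.

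Their ratio was nearly constant in WT. The level of miR-381-3p divided by that of miR-300-3p was 2.90, 2.91 and 2.88 in the WT libraries and 3.17, 2.85 and 3.39 in the KO libraries. Summed, the pair had 3630, 4236 and 4604 CPM in the KO libraries against 5433, 5789 and 5528 CPM in the WT libraries. The first 20 bases of the pair differ at a single position, so both counts are uncertain, since how mismatched reads were assigned is not given in the sources used here. Editing of adenosine to inosine, read as G by a sequencer, is known for several miRNAs of this cluster in brain. The A4G difference of the pair is of that kind, and the part of edited reads in either count was not tested.

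**Figure D2:**
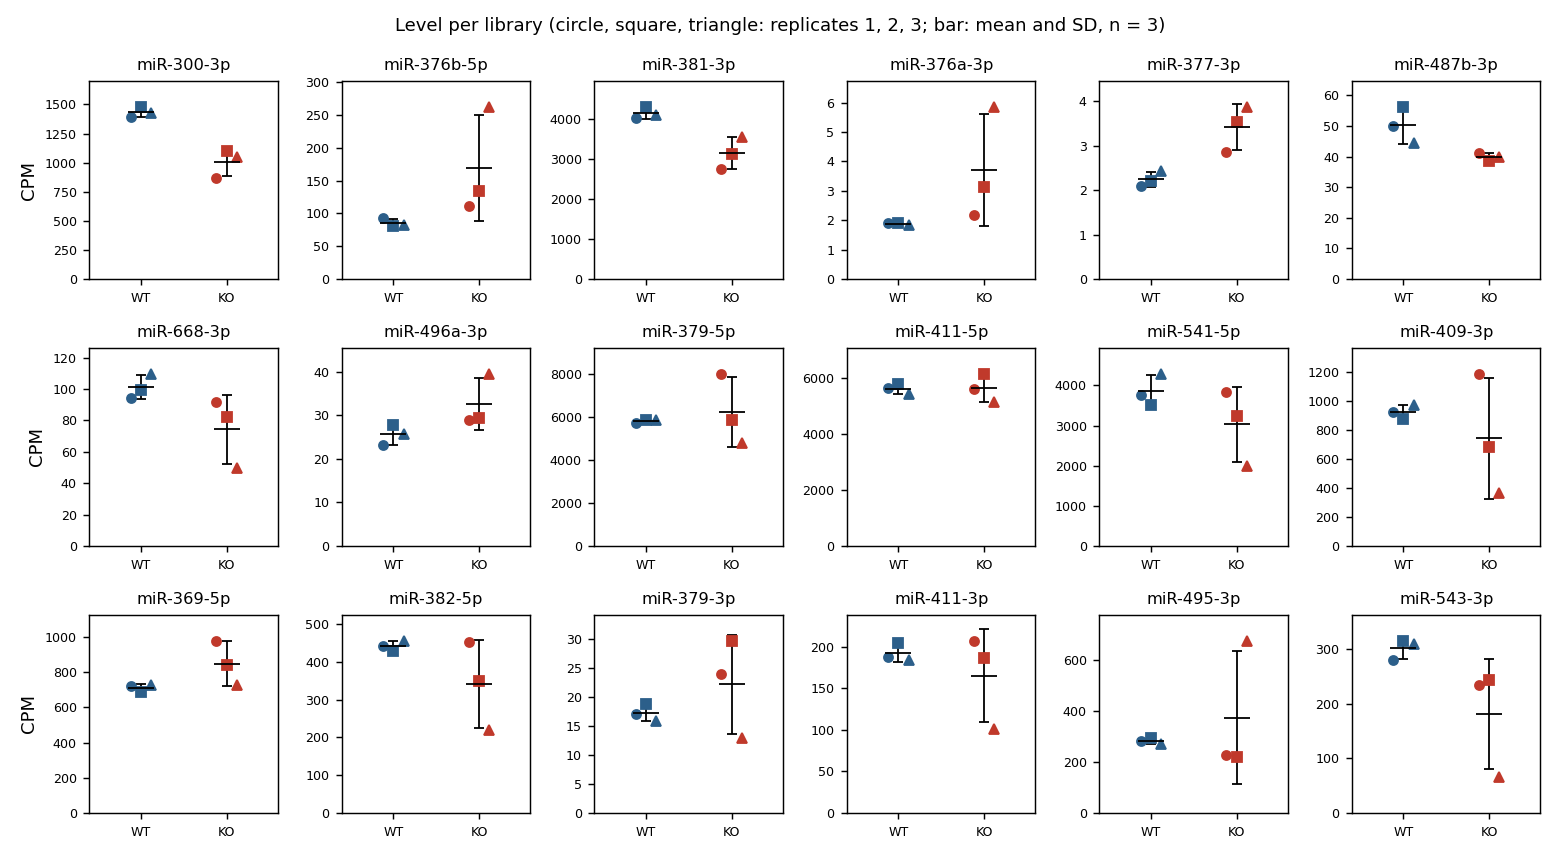
Level in CPM of 18 cluster miRNAs in each library, with WT in blue and KO in red, circles, squares and triangles for replicates 1, 2 and 3, and bars for the mean and SD (n = 3). Every KO library is below every WT library for miR-300-3p and miR-381-3p and above for miR-376b-5p, miR-376a-3p and miR-377-3p, while miR-495-3p and miR-543-3p part in KO replicate 3.

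Higher values in KO at an unadjusted p under 0.05 were found for miR-376b-5p, miR-376a-3p and miR-377-3p. The miR-376 hairpins lie within a short stretch of the array (109722718 to 109723848), and their RNAs are edited in the seed in mammalian brain. Levels of miR-376b-5p were 111.8, 133.99 and 262.5 CPM in the KO libraries against 93.1, 80.6 and 81.6 CPM in the WT libraries, for a fitted log2 change of 0.99 (SE 0.32, 95% interval 0.26 to 1.72, unadjusted p = 0.0138, edgeR adjusted p = 0.694). Those of miR-376a-3p were 2.18, 3.11 and 5.85 CPM in the KO libraries against 1.90, 1.91 and 1.84 CPM in the WT libraries, for a fitted log2 change of 0.97 (SE 0.39, unadjusted p = 0.0360, edgeR adjusted p = 0.720). This miRNA rests on 26 to 71 reads a library. In both, KO replicate 3 was the highest library and KO replicate 1 was the KO library nearest to the WT range. Without KO replicate 3 the log2 fold changes were 0.5479 and 0.4959, the lowest over all alternatives.

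The other members of the miR-376 group also peaked in KO replicate 3. Levels of miR-376b-3p were 4.98, 4.71 and 10.1 CPM in the KO libraries against 5.31, 3.75 and 4.28 CPM in the WT libraries. For miR-376c-3p they were 3.82, 8.16 and 16.1 CPM in the KO libraries against 6.75, 7.36 and 6.71 CPM in the WT libraries, and for miR-376a-5p 3.28, 5.21 and 6.51 CPM in the KO libraries against 6.03, 5.45 and 4.08 CPM in the WT libraries. Here the groups overlapped, with KO replicate 1 below the WT range for miR-376c-3p and miR-376a-5p. The next hairpin is that of miR-300, and its 5p arm miR-300-5p likewise had its highest level, 11.9 CPM, in KO replicate 3. The row of miR-376c-5p, a single base from miR-376b-5p (G19U, the base of miR-376b-5p first), held 4 reads in all and is not among the members.

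The third such member, miR-377-3p, comes from a hairpin (109740510 to 109740577) that overlaps an exon of Mirg. Its levels were 2.87, 3.53 and 3.87 CPM in the KO libraries against 2.10, 2.21 and 2.43 CPM in the WT libraries, for a fitted log2 change of 0.60 (SE 0.26, unadjusted p = 0.04997, edgeR adjusted p = 0.747), on 30 to 47 reads a library. All 3 KO libraries were above the WT range. The opposite arm of the same hairpin, miR-377-5p, had 2.59, 2.02 and 2.39 CPM in the KO libraries against 3.605, 3.02 and 2.499 CPM in the WT libraries, for a fitted log2 change of -0.38 (SE 0.28).

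The genotypes did not overlap for 11 members, 19.6% of the 56 against 15.7% of all tested miRNAs. Of these, 4 had higher values in KO (background 5.18%): the 3 above and miR-496a-3p, with 29.0, 29.4 and 39.6 CPM in the KO libraries against 23.2, 27.9 and 25.8 CPM in the WT libraries. The 7 with lower values in KO (background 10.5%) were miR-300-3p, miR-381-3p, miR-543-3p, miR-494-3p, miR-668-3p, miR-409-5p and miR-487b-3p. Levels of miR-487b-3p were 41.2, 38.7 and 39.9 CPM in the KO libraries against 49.9, 56.2 and 44.4 CPM in the WT libraries, so that here the KO group was the tighter. For miR-668-3p, from an exon of Mirg, they were 91.5, 82.2 and 49.5 CPM in the KO libraries against 94.4, 99.7 and 109.8 CPM in the WT libraries. Their log2 fold changes were 0.35 (SE 0.20) for miR-496a-3p, -0.33 (SE 0.17) for miR-487b-3p and -0.44 (SE 0.25) for miR-668-3p, with edgeR adjusted p = 0.749 for each. Without KO replicate 3 the value was 0.2059 for miR-496a-3p and -0.2067 for miR-668-3p, and without WT replicate 2 it was -0.2145 for miR-487b-3p.

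Over all members, 32 had lower and 24 higher fitted values in KO, with a median log2 fold change of -0.08, and 57.1% lower compares with 47.5% over all 541 miRNAs, whose median was 0.03. Fold changes ran from -0.73 for miR-543-3p to 0.99 for miR-376b-5p. Scaled without the 5 most abundant miRNAs of the table, 28 members were lower and 28 higher and their median was 0.00125. Under that scaling the median of all miRNAs was higher too, at 0.11. The members' median thus lay below that of all miRNAs under both scalings while its own sign differed. The plot of fitted fold changes shows intervals crossing 0 for all but 5 members.

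**Figure D3:**
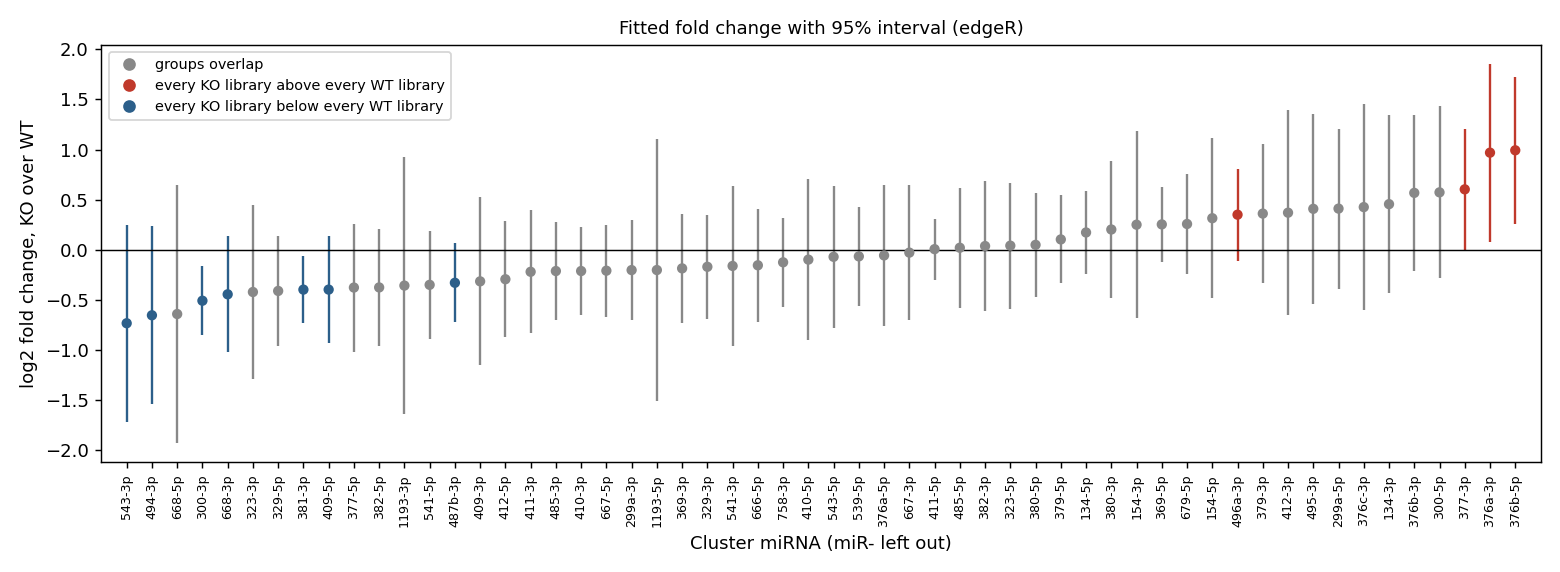
Fitted log2 fold change of KO over WT for the 56 cluster miRNAs, in ascending order, with 95% intervals from the edgeR fit (3 libraries a genotype). Red and blue mark the 4 and 7 members whose KO libraries all lie above or below every WT library, and the values run from -0.73 to 0.99.

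The other miRNAs of the imprinted domain also had more lower than higher values in KO. Of 31 rows from its other miRNAs, upstream of the cluster or opposite Rtl1, 27 could be tested. Values in KO were higher for 7 and lower for 20 of them (background 47.5% of all tested miRNAs lower), the median log2 fold change was -0.11, and 0 were called (edgeR). These rows are not all independent. The counts of miR-136-3p and miR-3071-5p were nearly the same in every library, such as 6401 and 6352 reads in KO replicate 1. Both are among the lower rows, with log2 fold changes of -0.003 each. Of the 27, 3 had an unadjusted p under 0.05 (background 6.47% of all tested miRNAs), and the groups did not overlap for 6 (background 15.7%). Summed over these rows, their levels came to 38523, 41582 and 24257 CPM in the KO libraries against 37815, 34935 and 38829 CPM in the WT libraries, so KO replicate 3 was lowest here as it was for the cluster.

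The KO libraries differed among themselves for nearly all members. The SD of log2 CPM over 3 libraries had a median of 0.49 over members in KO and 0.11 in WT, and 51 of 56 members had the larger SD in KO. Over all tested miRNAs the medians were 0.41 and 0.14, with 83.4% of miRNAs larger in KO. The highest KO library of miR-543-3p was 3.75 times the lowest and that of miR-376c-3p 4.21 times, against 1.13 and 1.10 times in WT. The 5 members with the smaller SD in KO included miR-134-5p, the regulator of dendritic spines, which had 114.1, 103.5 and 102.5 CPM in the KO libraries against 102.8, 90.1 and 91.1 CPM in the WT libraries, for a fitted log2 change of 0.17 (SE 0.18, edgeR adjusted p = 0.818).

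Replicate 3 of KO lay furthest from WT: the median distance of a member from its WT mean was 0.25, 0.29 and 0.70 log2 units in KO replicates 1, 2 and 3. Over all 541 tested miRNAs it was 0.30, 0.26 and 0.46 log2 units, so replicate 3 lay furthest there too. Replicate 3 was the lowest of the 6 libraries for 21 members and the highest for 20, shares of 37.5% and 35.7% beside backgrounds of 38.4% and 29.4%. In it, 16 of 56 members (28.6%) lay more than 2-fold from the WT mean, 8 above and 8 below, against 115 of 541 tested miRNAs (21.3%). In KO replicate 1 there was 1 such member, miR-1193-3p (1.8%), against 27 of 541 tested miRNAs (5.0%). In KO replicate 2 there were 0 members, against 25 of 541 (4.6%). The 8 above were miR-376a-3p, miR-376b-5p, miR-376b-3p, miR-376c-3p, miR-300-5p, miR-495-3p, miR-134-3p and miR-412-3p, and the 8 below miR-668-5p, miR-668-3p, miR-543-3p, miR-1193-5p, miR-323-3p, miR-494-3p, miR-409-3p and miR-382-5p. Of the 8 above, 5 come from the adjoining hairpins miR-376c, miR-376b, miR-376a and miR-300, as the map of members by library shows. The miRNAs furthest below include the scarce miR-668-5p and miR-1193-5p, with 2 and 3 reads in that library. The same library held the highest sums of the choroid plexus and miR-200 family markers, 2116 and 970.1 CPM, and the lowest sum of the oligodendrocyte markers, 632.2 CPM.

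**Figure D4:**
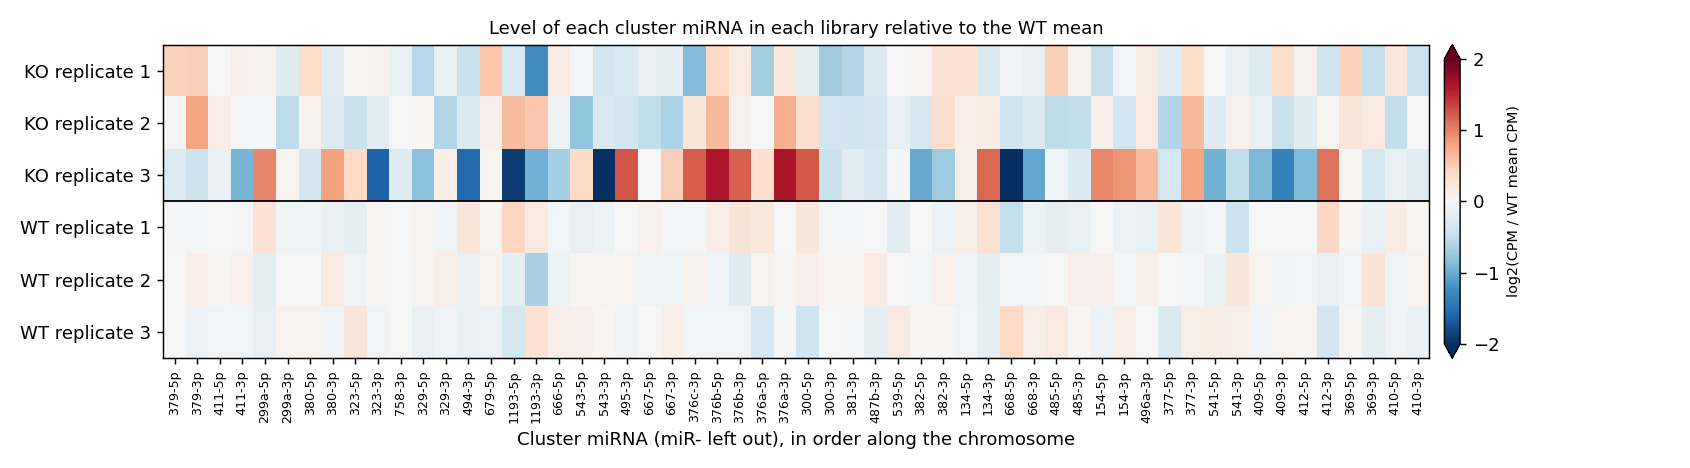
Level of each cluster miRNA in each library relative to its WT mean, as log2(CPM / WT mean CPM), with members in order along the chromosome and the 3 KO libraries above the line. Colours end at 2 log2 units either way, which miR-543-3p and miR-668-5p exceed in KO replicate 3, and the block of red in that row covers the miR-376 hairpins and miR-300-5p.

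The clearest opposite pair in KO replicate 3 was miR-543-3p and miR-495-3p, neighbours whose hairpins start at 109717258 and 109718754. Levels of miR-543-3p were 233.8, 243.9 and 65.0 CPM in the KO libraries against 279.2, 315.0 and 308.3 CPM in the WT libraries. Those of miR-495-3p were 229.2, 218.3 and 676.0 CPM in the KO libraries against 281.5, 295.2 and 269.7 CPM in the WT libraries. Relative to the WT mean, KO replicate 3 stood at -2.21 log2 units for the former and 1.26 for the latter. The level of miR-495-3p divided by that of miR-543-3p was 0.980, 0.895 and 10.4 in KO and 1.01, 0.937 and 0.875 in WT. The other 5 libraries thus lay between 0.875 and 1.01, and in KO replicates 1 and 2 both miRNAs were below every WT library. Fitted values were -0.73 (log2, SE 0.43) for miR-543-3p and 0.41 (log2, SE 0.41) for miR-495-3p, the positive sign of the latter coming from KO replicate 3 alone. A like drop in that library was seen for miR-323-3p, with 146.8, 118.4 and 45.3 CPM in the KO libraries against 142.2, 140.5 and 133.4 CPM in the WT libraries. Across the 53 members with a sequence, which share the library and its depth, GC content was set against the log2 deviation from the WT mean. Spearman's rho was -0.25 in KO replicate 3, and -0.113 there over all tested miRNAs with a sequence. Over the 6 libraries the members' rho ran from -0.421 (WT replicate 2) to 0.178 (WT replicate 3), and rho with position along the cluster from -0.087 to 0.043. Each WT library is part of the WT mean, so WT and KO values are not alike. A part of GC content or position in these deviations was not tested.

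A hairpin yields a 5p and a 3p product, of which usually a single arm is kept in the silencing complex. For 23 cluster hairpins both arms were members, and the ratio of 3p to 5p reads was compared between genotypes beside all hairpins of the table with both arms past the filter on low counts. By the mean log2 ratio, the 5p arm had more reads in 15 cluster hairpins and the 3p arm in 8. The mean ratio of 3p to 5p reads was lowest for miR-541, where the 3p arm made up 0.0462% ± 0.00948 of the hairpin's reads for KO and 0.0394% ± 0.0104 for WT (SD, 3 libraries each), for miR-379 (0.355% ± 0.128 and 0.296% ± 0.0245) and for miR-412 (4.09% ± 3.47 and 2.18% ± 0.633). It was highest for miR-300, with 99.3% ± 0.337 from the 3p arm in KO and 99.6% ± 0.0786 in WT, miR-668 (99.2% ± 0.375 and 99.0% ± 0.214) and miR-410 (99.0% ± 0.383 and 99.1% ± 0.0919). The arm with more reads thus changed from hairpin to hairpin along the array. These 6 hairpins kept theirs in all 6 libraries, but they were picked for the most extreme ratios. Hairpins with more even arms did not all do so. The 3p share of miR-377 was 52.5% to 63.6% in KO and 36.8% to 49.3% in WT. That of miR-1193, on few reads, was 31.25% to 62.5% in KO and 38.9% to 57.7% in WT.

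No arm ratio was called between genotypes (limma on log2 ratios, 0 of 23 cluster hairpins, background 0% of all such hairpins). At an unadjusted p under 0.05 there were 3 of 23, 13% against 9.03% of all hairpins, and groups did not overlap for 5 of 23 against 16.7%. The 3 were miR-300, miR-376a and miR-377. For miR-376a the 3p share was 40.0%, 37.4% and 47.3% in KO and 24.0%, 26.0% and 31.1% in WT, a difference in log2 ratio of 0.94 (SE 0.37, unadjusted p = 0.0314, limma adjusted p = 0.412). For miR-377 it was 52.5%, 63.6% and 61.8% in KO and 36.8%, 42.3% and 49.3% in WT, a difference of 0.96 (SE 0.40, unadjusted p = 0.0408, limma adjusted p = 0.485). In each, all KO libraries had the higher 3p share. For miR-300 the difference was -0.99 (SE 0.34, unadjusted p = 0.0175, limma adjusted p = 0.333), toward the scarce 5p arm, and for miR-382, whose KO libraries were also all higher, it was 0.40 (SE 0.23, limma adjusted p = 0.709).

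**Figure D5:**
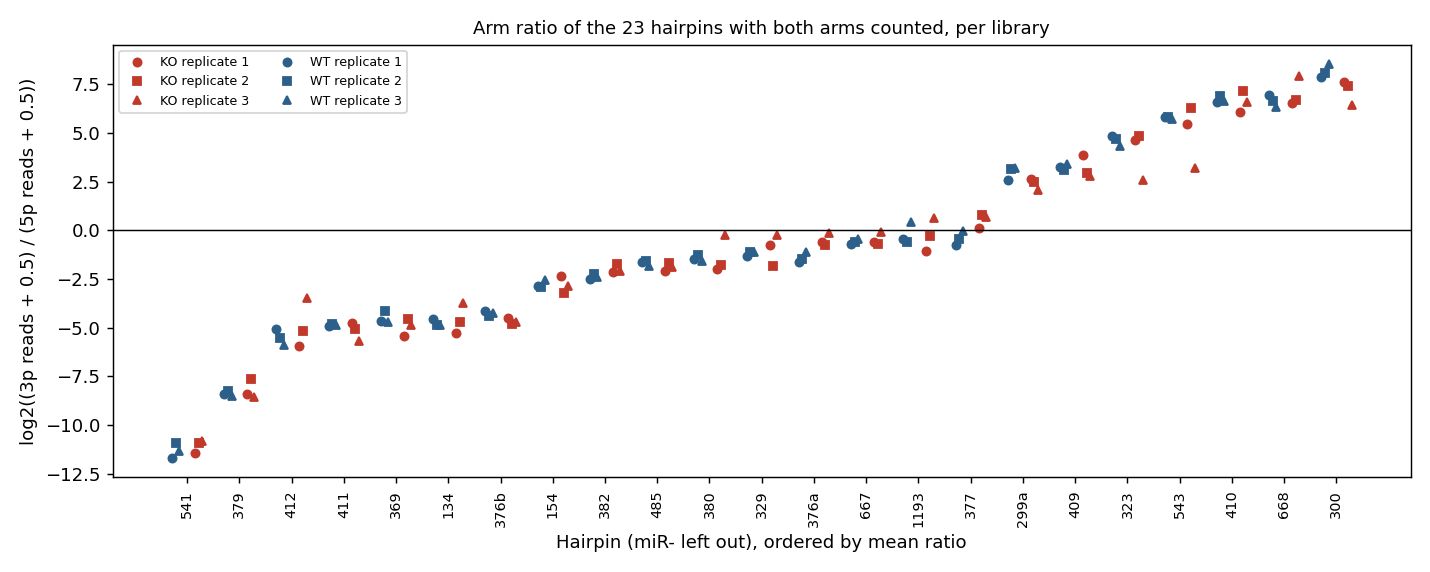
Ratio of 3p to 5p reads, as log2 with 0.5 reads added to each arm, for the 23 cluster hairpins in each library, ordered by mean ratio, with KO in red and WT in blue. Ratios run from -11.7 in miR-541 to 8.53 in miR-300, and the red triangles of KO replicate 3 lie apart from the rest for miR-412, miR-380, miR-323 and miR-543.

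The spread of arm ratios within genotypes repeated that of the levels. The median SD of the log2 ratio over the 23 hairpins was 0.49 in KO and 0.17 in WT, beside 0.51 and 0.20 over all hairpins tested. KO replicate 3 had the highest or lowest ratio of the 6 libraries in 16 of 23 hairpins, KO replicates 1 and 2 in 10 each, and the WT libraries in 5, 2 and 3. For miR-380, the 3p arm made up 20.05%, 22.8% and 45.8% of reads in KO and 26.2%, 29.6% and 25.3% in WT. For miR-543 it was 97.8%, 98.7% and 90.3% in KO and 98.3%, 98.3% and 98.2% in WT. In 7 hairpins, namely miR-412, miR-380, miR-329, miR-377, miR-323, miR-543 and miR-300, KO replicate 3 lay above every WT library for one arm and below every WT library for the other. Such opposite arms were also found in 7 hairpins of KO replicate 1 and 4 of KO replicate 2. Neither extreme ratios nor opposite arms were counted over all hairpins of the table, so these counts have no background and only describe the cluster. Of all 541 tested miRNAs, 192 lay above and 253 below every WT library in KO replicate 3. The part of that general spread in the opposite arms was not tested.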

How the data were processed

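Small RNA of 6 cortex libraries was read from a single end after adaptor ligation, PCR and size selection on a gel, per the labels' protocols. Per the submitters' processing notes, the tools were Bowtie and DESeq2 and the build mm10; no version or setting was seen. Mismatches, reads with several matches, strand and the miRBase release were not given in the sources used here. Whole-number read counts per mature miRNA make up the deposited table. The authors also deposited TPM values, each a scaled share of its library (largest deviation 4.9e-10), which were not used further. Columns matched the sample titles by number, and 0 columns of values lacked a sample.

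Counts of the whole table were fitted in R 4.3.3 with edgeR 4.0.16 (filterByExpr with a minimum count of 10, TMM, robust quasi-likelihood test), which left 541 of 1182 rows, adjusted together by Benjamini-Hochberg at 0.05. SE is the log2 fold change divided by the square root of F. CPM use TMM-scaled library sizes, and SDs of log2 CPM were taken after adding 0.01. Arm ratios were fitted with limma 3.58.1 on log2 ratios with 0.5 reads added, over all hairpins with both arms past the same filter. Alternatives were other scalings, no filter, DESeq2 1.42.0, limma-voom, other arm settings and leaving out each library. Both fits were tested on simulated data. The fit of levels recovered 50.5% of 2-fold and 98% of 4-fold changes, with 2.03% of its calls false. The fit of arm ratios recovered 11.1% of 2-fold and 80.8% of 4-fold changes, with 4.17% of its calls false. In the simulated levels 97 of 526 genes were changed 2-fold and 98 were changed 4-fold. In the simulated arm ratios these numbers were 18 and 26 of 135 hairpins. So large a changed share eases the adjustment of p-values. Recovery may thus be lower in the real libraries, where no miRNA was called. The absence of calls therefore says little about 2-fold changes, above all for arm ratios. No molecular identifiers are named, so reads may count PCR copies as well as molecules. How far read counts of different miRNAs or arms compare as amounts was not tested.

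The members and lists were chosen with earlier results of these data known. Members named in full were the 8 with the smallest p, the 8 most abundant, and those with a shared seed and at least 10 CPM, and for arms the 4 hairpins with the smallest p and the 3 at either end of the ratio. No member had counts within 3% of another row in every library. Other names, such as miR-495-3p, miR-543-3p, miR-134-5p and the miR-380 and miR-543 arms, were chosen after their values were seen. Hairpins were placed with GENCODE M21 and mature sequences taken from RefSeq on GRCm38.p6.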

Additional observations from a re-analysis of the deposited data

How the results depend on the processing

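The count of 0 called members held under both other scalings, without a filter on low counts, with DESeq2 and with limma-voom. With a library left out it ranged from 0 to 2 of 56 members and that of all miRNAs from 0 to 18, the calls arising without KO replicate 3. Members at an unadjusted p under 0.05 numbered 5 in the main analysis, 3 without the filter, 3 with DESeq2 and 3 with limma-voom, and from 1 to 10 with a library left out. Over all tested miRNAs this count was 35 of 541 in the main analysis. It was 56 of 1182 without the filter, 40 of 1182 with DESeq2 and 34 of 541 with limma-voom. Leaving out KO replicates 1, 2 and 3 gave 71 of 561, 50 of 559 and 97 of 560. Leaving out WT replicates 1, 2 and 3 gave 16 of 557, 14 of 564 and 18 of 554. The median log2 fold change of the members was 0.001247 when scaled without the 5 most abundant miRNAs, where that of all miRNAs was 0.11, and ranged from -0.109 to -0.03162 with a library left out. Of 176 values of 16 named members under the alternatives, 169 kept direction and side of the threshold, 2 (miR-300-3p and miR-381-3p without KO replicate 3) passed it, and 5 changed direction, all with a library left out. Across those settings miR-379-5p ranged from -0.1065 (without KO replicate 1) to 0.272, miR-411-5p from -0.1051 (without KO replicate 2; -0.0101 without WT replicate 3) to 0.0846, and, highest without KO replicate 3, miR-409-3p from -0.8176 to 0.02423 and miR-411-3p from -0.407 to 0.04919. The cause was not tested. The arm ratios gave 0 calls under every alternative run. No paired analysis was possible because the labels carry no replicate numbers shared between genotypes. Depth limits the scarce members, 21 of which had a mean below 10 CPM.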
